A study of Mus musculus with 2 samples.

Results

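Autophagy is the process by which a cell encloses part of its cytoplasm in a double membrane and delivers it to the lysosome for digestion. A kinase complex around ULK1 starts the process, a lipid kinase complex around PIK3C3 and Beclin 1 marks the site with phosphatidylinositol 3-phosphate, and ubiquitin-like conjugation attaches proteins of the LC3 and GABARAP family to the growing membrane, where cargo receptors bind. The liver is known for active autophagy during fasting, when insulin is low and the kinase mTORC1, which restrains ULK1 and the lysosomal transcription factors TFEB and TFE3, is less active. Autophagy itself is a flux of protein and membrane; the arrays described here measured messenger RNA.

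The gene set holds 46 genes of autophagy and lysosome biogenesis, chosen by name as known genes of the pathway, out of 20652 genes that could be named on the array. They were chosen with earlier results of these data known, and were arranged in 8 classes by role. Of the 46 genes, 45 were measured, meaning that the probe representing the gene was well above background on at least 1 array, and 44 were well above background on both. Atg4a, a protease of LC3-like proteins, did not stand well above background on any array (fasting signal 4.51, feeding signal 2.68). Atg9a, a transmembrane protein of the vesicles that seed the autophagosome, did so only upon feeding (fasting signal 9.79, feeding signal 9.88), so it has no fold change.

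Both groups were male mice, and the study's methods name young adult C57BL/6J animals beside transgenic lines that the array labels do not mention. The fasting group was fasted overnight, given as 16 h in one label and as 14 to 16 h in another, and the feeding group is labelled both as fed at will and as fed after the fast. Liver RNA of 3 mice was pooled per group and hybridised with a single dye (Cy3) to 1 Agilent Whole Mouse Genome array, so every difference below compares 1 array with 1 array, has no replicate check and carries no p-value. Signals are processed intensities after subtraction of local background, and changes are log2 differences, feeding minus fasting, after quantile normalization of the arrays.

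The arrays were of liver from animals in different feeding states, as far as known genes can show. All 6 hepatocyte markers were well above background on both arrays, with a median change of -0.07. Of the genes known to be induced by fasting, Pck1 fell from 100863 to 12356 and Igfbp1 from 101317 to 4734, while the lipogenic genes Srebf1 and Fasn rose from 206 to 1677 and from 142 to 1036. Markers of Kupffer cells and leukocytes, of which 8 of 9 were measured, had a summed normalized signal of 79789 upon fasting and 60591 upon feeding. Their changes lay between -0.89 and 0.20, with a median of -0.44. Endothelial markers summed to 35391 and 27189, with a median change of -0.35, and hepatocyte markers to 544875 and 461442. Among the hepatocyte markers, Tat changed by -0.97 and Hnf4a by -0.43, while Alb, Ttr, Apoa1 and Cyp2e1 lay between -0.07 and -0.02. Stellate cell markers summed to 31098 and 26472, with a median change of -0.24. Cholangiocyte markers summed to 454 and 1706, with a median change of 0.13 and Sox9 at 2.11. In bulk tissue, fewer cells of a type, less RNA per cell and regulation of the markers themselves cannot be told apart. The part of these shifts in the changes below was not tested.

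Upon feeding, 4 of the 45 measured genes were at least 2-fold lower, and 0 were at least 2-fold higher. The 4 were Atg14, Calcoco1, Gabarapl1 and Map1lc3b, which belong to the nucleation complex, the cargo receptors and the LC3 and GABARAP family. They are 8.89% of the measured genes of the set, beside 4.62% of all 16346 genes measured that were at least 2-fold lower; 3.29% of all genes were at least 2-fold higher. At 1.5-fold, 10 genes of the set (22.2%) were lower, beside 10.6% of all genes, and 1 (2.22%) was higher, beside 10.5% of all genes. Among genes well above background on both arrays, 33 of 44 (75%) had a change below 0, beside 50.1% of all such genes.

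The shift of the set as a whole was small. The median change was -0.16, beside 0.00 for all genes. Under median scaling, which divides every array by its own median signal, the set had a median of 0.00 and all genes had one of 0.09, 22 of 45 genes were below 0 in place of 33, and 31 of 45 were below the median of all genes. Since 28 of the measured genes lay in the brightest of 3 equal groups of genes by mean signal, the same was read within that group. There, 2 of the 28 (7.14%) were at least 2-fold lower, beside 3.71% of all bright genes, and 5 (17.9%) at least 1.5-fold lower, beside 8.72%. Of the 28, 23 had a change below the median of all bright genes, and 22 of 28 under median scaling.

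**Figure D1:**
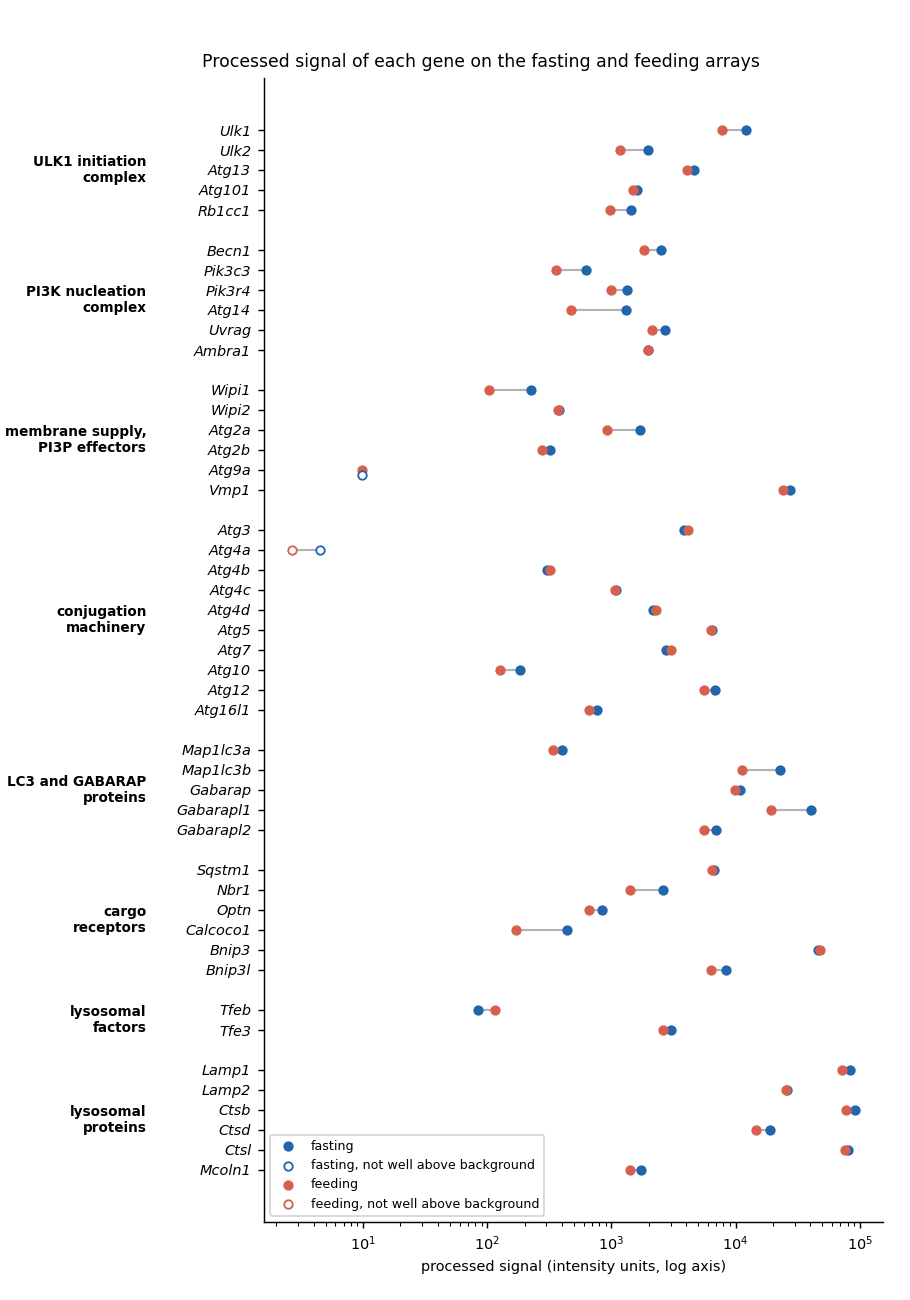
Processed signal (intensity after background subtraction, log axis) of the probe representing each of the 46 genes, with 1 point for the fasting array and 1 for the feeding array joined by a line; genes are grouped by class, and open points were not well above background. The widest gaps belong to Atg14, Calcoco1, Wipi1, Gabarapl1 and Map1lc3b, while most conjugation genes and lysosomal proteins have points that nearly coincide. Signals of different genes come from different probes and are not comparable with each other.

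The plot of signals by gene shows that most of the set differed little between the arrays and that the larger gaps ran one way. The spread that can be set against these gaps is that of probes spotted 10 times on each array. The median SD of a log2 difference between single spots was 0.08 in the bright group of genes, 0.09 in the middle group and 0.28 in the dim group. It covers the measurement on the array and not the difference between mice.

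All 5 genes of the ULK1 initiation complex had changes below 0, 3 of them under every scaling, with a median of -0.47. Ulk1, the kinase that starts autophagosome formation, had signals of 12048 upon fasting and 7808 upon feeding, a change of -0.60. Ulk2, its close relative, had 1961 and 1178, a change of -0.68, and its other probe gave -0.65. Rb1cc1, which encodes the scaffold FIP200, had 1434 and 981, a change of -0.47, with -0.78 on its other probe. The smaller accessory subunits of the complex lay nearer 0. Atg13, the subunit that binds ULK1 to the scaffold, had 4629 and 4072 and a change of -0.16. Atg101, which stabilises ATG13, had 1606 and 1505 and a change of -0.04. Under median scaling both of these turned to 0.05 and 0.14, and Atg101 was also at 0.02 with scaling by the 75th percentile, while Ulk1, Ulk2 and Rb1cc1 kept changes of -0.39, -0.50 and -0.31.

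The PI3K nucleation complex held the largest decrease of the set among the probes that represent a gene. Atg14, the subunit that directs the lipid kinase to the site of autophagosome formation, fell from 1311 to 475, a change of -1.36 or 2.56-fold lower upon feeding. It was at least 2-fold lower under every scaling, background correction and probe rule tried, with changes from -1.36 to -1.13. The catalytic subunit Pik3c3 had 623 and 357, a change of -0.66, with -0.54 on its other probe. Becn1, encoding Beclin 1, had 2506 and 1846, a change of -0.40. The same direction was seen for the regulatory kinase subunit Pik3r4 (1347 and 994, a change of -0.36). Uvrag, which takes the place of ATG14 in a second form of the complex that acts on endosomes, had 2729 and 2113 and a change of -0.33. Atg14 and Uvrag, the alternative partners of the same core, thus lay at -1.36 and -0.33 on 1 probe each. Ambra1, a scaffold that binds Beclin 1, had 1977 and 1969 and a change of 0.04, which turned to -0.06 with the normexp background. The class had a median of -0.38, and 5 of its 6 genes were below 0.

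Within the class of membrane supply and PI3P effectors, the lipid-binding and lipid-transfer pairs divided. Wipi1, a sensor of phosphatidylinositol 3-phosphate, had 224 upon fasting and 103 upon feeding, a change of -0.92, the value just outside the 2-fold threshold. Its other probe, in the dim group, had 44.2 and 24.7 and a change of -0.63. Wipi2, the related sensor that recruits the ATG16L1 complex, had 379 and 375, a change of 0.14, and 0.18 on its other probe. Atg2a, a lipid transfer protein, had 1706 and 919 and a change of -0.82. Its paralog Atg2b had 323 and 277 and a change of -0.06, or 0.01 under median scaling. In both pairs the first gene had a change of at least 1.5-fold and the second was near 0, although paralogs were read by different probes. Vmp1, an endoplasmic reticulum protein needed early in the process, had 27404 and 24188 and a change of -0.15, or 0.05 under median scaling. The class median was -0.10, and 0.01 under median scaling. Atg9a entered it with a bound of 0, and among genes well above background on both arrays the class median was -0.15. Wipi1 passed the 2-fold threshold with scaling by the 75th percentile (-1.01) and was at -0.51 with normexp, and its signal upon fasting came with a local background of 31, against 20 upon feeding.

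The conjugation machinery had the class median closest to 0 as reported, but not under median scaling, where it was 0.22. Of its 9 measured genes, 0 differed by 1.5-fold, beside 10.6% of all genes that were lower and 10.5% that were higher. In the class 3 were below 0 and 6 above it, beside 50.1% below 0 among all genes well above background on both arrays. The class median was 0.04. Atg7, the E1-like enzyme that activates ATG12 and the LC3-like proteins, had 2753 upon fasting and 3036 upon feeding, a change of 0.17. Its other probe gave -0.46, and the mean of its probes -0.15. The E2-like enzyme Atg3 had 3852 and 4136 and a change of 0.13. Atg10, the other E2-like enzyme, had 185 and 126 and the lowest change of the class, -0.34, with -0.27 on its other probe. Thus, on the probes that represent them, the enzymes of the pathway did not move in one direction, and none moved by 1.5-fold. Atg5, which is joined to ATG12, had 6477 and 6402, a change of 0.01. Atg12 itself had 6828 and 5551, a change of -0.27, with -0.55 on its other probe. Atg16l1, which holds the ATG12 and ATG5 conjugate at the membrane, had 771 and 665 and a change of -0.10, or 0.02 under median scaling. The proteases that trim LC3-like proteins had changes of 0.25 for Atg4b, the highest of the class, 0.11 for Atg4d and 0.04 for Atg4c. Atg4b had signals of 301 and 319.

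The substrates of that machinery, the LC3 and GABARAP proteins, all had changes below 0, except that Gabarap was at 0.08 and Map1lc3a at 0.00 under median scaling. Of the 5 genes, 2 fell by more than 2-fold, beside 4.62% of all genes. Gabarapl1 fell from 40681 to 19299, a change of -1.04. Map1lc3b, the LC3 gene whose protein is the usual marker of autophagosomes, fell from 22978 to 11215, a change of -1.03, the value just inside the threshold. Both dropped below it under median scaling, to -0.84 and -0.80, and with scaling by the 75th percentile, to -0.97 and -0.93, so their call rests on the scaling while their direction does not. Map1lc3b was spotted 10 times on each array. Its fasting spots ran from 21896 through a median of 22812 to 24162, and its feeding spots from 10784 through 11232 to 11585. The SD of these spots was 0.04 upon fasting and 0.03 upon feeding on the log2 scale. The spots are repeat measurements of pooled RNA within an array, before normalization, and do not cover differences between mice. Pik3r4, the other gene of the set spotted 10 times, ran from 1264 to 1445 upon fasting and from 912 to 1065 upon feeding, for a smaller change of -0.36.

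The remaining genes of the family had smaller changes. Gabarapl2 had 7008 and 5525 and a change of -0.32. Gabarap had 10948 and 9834 and a change of -0.16, with -0.50 on its other probe. Map1lc3a had 401 and 341 and a change of -0.09. The class median was -0.32. Under median scaling it was -0.11, beside 0.22 for the conjugation machinery.

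**Figure D2:**
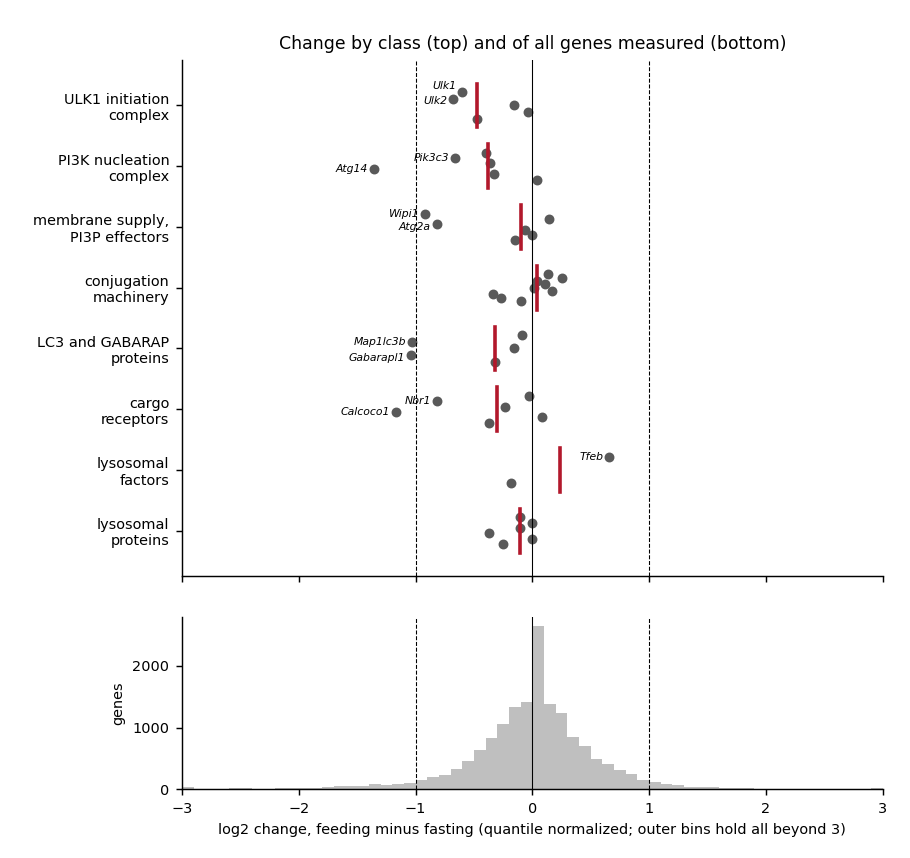
Log2 change, feeding minus fasting, of each measured gene by class (points, with the class median as a red line) above the distribution of all 16346 measured genes. Dashed lines mark 2-fold. The tall bin at 0 holds genes with small changes and, beside them, genes that were well above background on 1 array only and whose bound was 0. The 4 genes past 2-fold all lie on the left, the conjugation machinery is centred near 0, and Tfeb is the only gene of the set at least 1.5-fold higher upon feeding.

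As the plot of changes by class shows, the cargo receptors were spread between the classes described so far. Calcoco1, a receptor for autophagy of the endoplasmic reticulum and the Golgi, fell from 439 to 171, a change of -1.17 or 2.26-fold lower upon feeding. With the normexp background the change was -0.80, below the 2-fold threshold. Nbr1, a receptor for ubiquitinated cargo and peroxisomes, had 2621 and 1426 and a change of -0.82. Sqstm1, which encodes p62, the best known receptor for ubiquitinated cargo, had 6734 and 6459 and a change of -0.03, with 0.17 under median scaling and 0.06 with normexp. Nbr1 and Sqstm1, whose proteins bind each other and share cargo, thus differed in size of change on 1 probe each. Optn, another ubiquitin receptor, had 835 and 656 and a change of -0.23. The mitophagy receptors also differed from each other. Bnip3l had 8320 and 6321, and its 4 probes gave changes between -0.63 and -0.30. Bnip3 had 46074 and 47488, a change of 0.08, with 0.12 and -0.56 on its other probes. The class median was -0.30, and 5 of 6 genes were below 0.

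The lysosomal transcription factors and lysosomal proteins showed no change of 2-fold by the probe that represents each gene. Tfeb had 83.8 upon fasting and 115 upon feeding, a change of 0.66, the only change of the set past 1.5-fold in the direction of feeding. This probe was in the dim group of genes, where single spots have a median SD of 0.28 for a difference, and the change was 0.32 with normexp. Tfe3, the related factor, had 3019 and 2600 and a change of -0.18, with -0.19 on its other probe and 0.02 under median scaling. The class of lysosomal proteins had a median of -0.11, and 0.02 under median scaling. Lamp1, the major membrane glycoprotein of the lysosome, had 83474 and 72230 and a change of -0.11. The cathepsins B and L, proteases of the lysosomal lumen, were as close to 0. Ctsb had 90981 and 78125 and a change of -0.11, and Ctsl had 80471 and 76634 and a change of 0.00. For Lamp1 and Ctsb the sign turned under median scaling, to 0.03 and 0.02. Mcoln1, the calcium channel TRPML1, had 1735 and 1401 and a change of -0.25. Thus Lamp1 and Ctsb were 1.08-fold lower upon feeding, and none of the class reached 1.5-fold on the probe that represents it. Of all genes, 10.6% were at least 1.5-fold lower and 10.5% at least 1.5-fold higher.

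Of the 15 genes with several probes, 13 had all probes in one direction and 2, Atg7 and Bnip3, did not. For Ctsd, the aspartic protease of the lysosome, the probes differed by more than 1 on the log2 scale. The probe that represents Ctsd had 19053 and 14598 and a change of -0.37. Its other probe for the same transcript had 848 and 210 and a change of -1.87, which is 3.65-fold lower upon feeding. With the mean of the probes in place of the brightest, Ctsd was at -1.12 and became the fifth gene past 2-fold. The probes of Lamp2 match different transcripts of the gene. That for NM_010685 had 25902 and 25362 and a change of 0.00, and that for NM_001017959 had 22781 and 14848 and a change of -0.59. Atg7 had 221 and 138 on its other probe, a change of -0.46 against 0.17 on the probe that represents it.

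**Figure D3:**
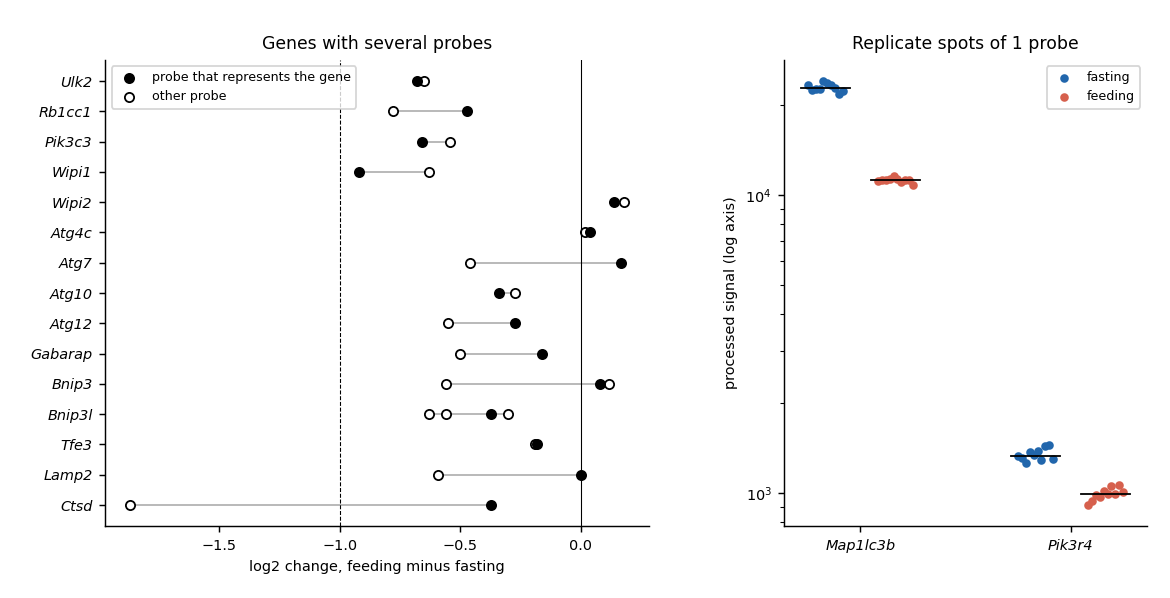
Left, log2 change, feeding minus fasting, of every probe of the 15 genes with several probes, with the probe that represents the gene filled and a dashed line at 2-fold; right, processed signal (log axis) of the 10 replicate spots of Map1lc3b and of Pik3r4 on each array, with the median as a line. Probes of a gene mostly agree in direction, and Ctsd spans from -1.87 to -0.37. The replicate spots are repeat measurements within an array, before normalization.

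The promoters of the genes that fell by 2-fold are shown to set them beside those of lysosomal genes with several copies of a known motif, since TFEB and TFE3 are known to bind the letters CACGTG, above all as GTCACGTG. The sequences are from RefSeq on the assembly GRCm38.p6 and run from 250 bases before the start site to 50 after it, 5′ to 3′ on the strand of the gene. Capitals mark CACGTG, which reads the same on both strands. Atg14 lies on the minus strand at chr14:47568385-47568684, Calcoco1 on the minus strand at chr15:102722129-102722428, Gabarapl1 on the plus strand at chr6:129532942-129533241 and Map1lc3b on the plus strand at chr8:121590188-121590487.
Atg14: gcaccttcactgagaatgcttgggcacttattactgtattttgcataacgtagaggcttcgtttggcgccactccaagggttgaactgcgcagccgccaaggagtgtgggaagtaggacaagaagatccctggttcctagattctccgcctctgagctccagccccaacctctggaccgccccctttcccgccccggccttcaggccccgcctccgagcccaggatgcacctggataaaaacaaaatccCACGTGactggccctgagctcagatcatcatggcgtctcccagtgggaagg
Calcoco1: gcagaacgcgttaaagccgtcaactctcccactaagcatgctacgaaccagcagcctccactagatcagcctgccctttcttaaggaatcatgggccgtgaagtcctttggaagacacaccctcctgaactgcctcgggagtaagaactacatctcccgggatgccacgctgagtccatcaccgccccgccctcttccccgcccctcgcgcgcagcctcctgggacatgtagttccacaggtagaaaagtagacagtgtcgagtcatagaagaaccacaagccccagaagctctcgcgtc
Gabarapl1: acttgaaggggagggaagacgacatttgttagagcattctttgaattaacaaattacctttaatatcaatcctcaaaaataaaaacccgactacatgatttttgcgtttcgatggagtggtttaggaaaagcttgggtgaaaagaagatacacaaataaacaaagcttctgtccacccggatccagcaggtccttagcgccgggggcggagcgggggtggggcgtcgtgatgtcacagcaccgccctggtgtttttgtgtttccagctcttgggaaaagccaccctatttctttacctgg
Map1lc3b: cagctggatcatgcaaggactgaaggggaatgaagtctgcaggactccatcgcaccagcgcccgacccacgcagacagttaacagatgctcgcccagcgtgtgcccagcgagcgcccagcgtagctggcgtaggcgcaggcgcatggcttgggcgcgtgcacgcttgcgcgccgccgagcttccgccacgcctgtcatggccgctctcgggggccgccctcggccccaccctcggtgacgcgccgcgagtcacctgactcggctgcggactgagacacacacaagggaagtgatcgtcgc
Of these windows, that of Atg14 held 1 copy of CACGTG, with its first base at -1 from the start site, and the other 3 held 0 copies.

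Among the lysosomal proteins, Ctsl held 1 copy and Lamp2 held 0, and Lamp1, Mcoln1 and Ctsd held several. The window of Lamp1 on the plus strand at chr8:13158911-13159210 held 4, that of Mcoln1 on the plus strand at chr8:3500269-3500568 held 2, starting at -71 and -45, and that of Ctsd on the minus strand at chr7:142387778-142388077 held 2, starting at -245 and -98. Atg3, which is not a lysosomal gene, also held 2.
Lamp1: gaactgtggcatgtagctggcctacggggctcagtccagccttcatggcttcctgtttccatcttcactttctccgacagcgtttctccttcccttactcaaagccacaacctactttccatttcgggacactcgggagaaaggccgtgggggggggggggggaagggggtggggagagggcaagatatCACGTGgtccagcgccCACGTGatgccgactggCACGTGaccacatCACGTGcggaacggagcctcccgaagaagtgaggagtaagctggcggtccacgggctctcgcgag
Mcoln1: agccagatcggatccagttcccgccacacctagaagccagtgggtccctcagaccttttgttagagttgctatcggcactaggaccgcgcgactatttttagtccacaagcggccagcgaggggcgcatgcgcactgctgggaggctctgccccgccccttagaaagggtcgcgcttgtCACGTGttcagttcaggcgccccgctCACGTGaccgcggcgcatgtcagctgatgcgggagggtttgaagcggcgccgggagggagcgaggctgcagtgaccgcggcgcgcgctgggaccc
Ctsd: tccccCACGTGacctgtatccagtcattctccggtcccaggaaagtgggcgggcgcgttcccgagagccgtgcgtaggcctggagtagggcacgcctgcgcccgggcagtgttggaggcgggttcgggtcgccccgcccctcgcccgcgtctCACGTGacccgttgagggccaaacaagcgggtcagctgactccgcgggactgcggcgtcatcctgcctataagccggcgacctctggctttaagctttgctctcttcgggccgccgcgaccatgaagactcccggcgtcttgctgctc
Among the 38 genes of the set with a window in the table, 9 held CACGTG, in 9 of 46 windows (19.6%), beside 7.15% of all 32851 windows of the same length. The longer form GTCACGTG, which contains it, was in 6 of the 46 windows (13%), beside 2.25% of all. The windows of the set also had a higher median GC content, 60% beside 52.7%, and its part in these shares was not tested. The 9 genes were Atg14 with a change of -1.36, Ctsd with -0.37, Mcoln1 with -0.25, Lamp1 with -0.11, Ctsl with 0.00, Atg5 with 0.01, Bnip3 with 0.08, Atg3 with 0.13 and Atg7 with 0.17. Only the first of these passed 1.5-fold on the probe that represents the gene. The exact FoxO letters GTAAACA were in 0 of the 46 windows, searched on both strands, beside 3.65% of all. Other forms of the FoxO letters were not searched, and the Gabarapl1 window shown above holds ATAAACA, which differs by 1 base. The cAMP response letters TGACGTCA were in 1 window, that of Atg5, beside 1.79%. These matches are descriptions of letters in a short window. No window was in the table for Atg12, Atg16l1, Becn1, Bnip3l, Ctsb, Map1lc3a, Pik3c3 and Rb1cc1.

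Other genes of the pathway were read from lists written by name, with earlier results of these data known. The counts in these lists are a description and not independent support. Among 26 genes of autophagosome maturation and autophagy regulation, 6 were at least 2-fold lower upon feeding and 0 higher, with a median of -0.29. Of all genes measured, 4.62% were at least 2-fold lower and 3.29% at least 2-fold higher. In this list, 5 were lower by 2-fold under the other scalings, where Rab7 missed the threshold. Trp53inp1, encoding a stress protein that binds LC3 and GABARAP proteins, fell from 17317 to 1008, a change of -4.06, or -2.33 with the mean of its 2 probes. Retreg1, the receptor FAM134B for autophagy of the endoplasmic reticulum, fell from 1809 to 166, a change of -3.32. Trp53inp2, which binds the same family and acts in autophagosome formation, fell from 16067 to 5426, a change of -1.55. All 3 decreases were larger than that of Atg14. The others were Bcl2, an inhibitor of Beclin 1 with dim signals of 36.9 and 12.5 (-1.37, or -0.21 with normexp), Atg16l2 (-1.22) and the late endosome GTPase gene Rab7 (-1.03).

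The genes that acidify and fill the lysosome moved little. All 17 V-ATPase subunits measured, which form the proton pump, lay between -0.40 and 0.42, with a median of -0.02 that turned to 0.16 under median scaling. Among 40 lysosomal hydrolases and their cofactors the median was -0.17, against -0.02 under median scaling. Of the 40 in this list, 31 had a change below 0, beside 50.1% of all genes well above background on both arrays. Under median scaling, 21 of the list were below 0. In that list 1 gene was at least 2-fold lower and 0 were higher, beside 4.62% and 3.29% of all genes. This was the heparan sulfatase gene Sgsh, with signals of 70841 and 27600 and a change of -1.29. With the mean of its 2 probes Sgsh was at -0.25, so its other probe had a change above 0. Sgsh was followed by Gm2a, an activator of ganglioside breakdown, at 0.86, the saposin precursor Psap at -0.80 and the peptidase gene Tpp1 at -0.68. Gm2a was at 1.03 under median scaling, past 2-fold, and at 0.40 with the mean of its probes. Of 18 lysosomal membrane proteins measured, 1 was at least 2-fold higher and 0 were lower, beside 3.29% and 4.62% of all genes. This was the sialic acid transporter gene Slc17a5, which rose from 79.3 to 285, a change of 2.04. With the mean of its 2 probes the change was 0.63 and no longer past 2-fold, so its other probe had a change below 0. This list had a median of -0.14, or 0.01 under median scaling, with Abcb9 at 0.69, Mfsd8 at 0.56 and Npc2 at -0.50.

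Of the nutrient-sensing genes upstream, single inhibitors of mTORC1 changed and the list had no common direction, with 14 genes below 0 and 14 above. Among 29 genes of mTORC1 and its regulators measured, the median was 0.00. In this list 2 were at least 2-fold lower, or 1 under median scaling or normexp, beside 4.62% of all genes. At least 2-fold higher was 1, beside 3.29% of all genes. Ddit4, which encodes the mTORC1 inhibitor REDD1, fell from 27529 to 2019, a change of -3.73. Sesn1, encoding a sestrin, a family that restrains mTORC1, fell from 1608 to 724, a change of -1.07. Fnip2, a partner of folliculin, rose from 521 to 961, or 2.01-fold and so just past the threshold, which it missed with scaling by the 75th percentile (0.99) and with normexp (0.84), while its paralog Fnip1 had 4603 and 2659 and a change of -0.75. No gene among the 10 of AMPK and its upstream kinases passed 2-fold, beside 4.62% of all genes that were lower and 3.29% that were higher. The median there was 0.07, with Camkk2 at 0.67, Stk11 at -0.46 and Prkaa2 at 0.43.

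Among 11 transcriptional regulators of autophagy genes measured, 1 passed 2-fold, by a decrease, beside 4.62% of all genes that were at least 2-fold lower. Foxo1, an insulin-restrained factor, fell from 6015 to 2708, a change of -1.12. The autophagy repressor gene Zkscan3 had 4004 and 2234 and a change of -0.80, and Ppara, the fatty acid sensor active in fasting, had 9971 and 5750 and a change of -0.78. Nr1h4, encoding the bile acid receptor FXR, which is known to oppose PPARα at autophagy genes in the fed liver, had 12392 and 22827 and a change of 0.91. Atf4, an activator of autophagy genes under stress, had 14807 and 22325 and a change of 0.62. With the mean of its probes Atf4 was at 0.10, so its other probe had a change below 0. Foxo3, with dim signals of 17.5 and 10.3, was at -0.62, or -0.14 with normexp, and Crtc2 was at -0.50. In the list, 6 genes had changes below 0 and 5 above it, with Foxo1 alone past the threshold. Under median scaling Foxo1 was at -0.92 and Nr1h4 at 1.12, so that Nr1h4 alone was past it. The list had a median of -0.27.

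**Figure D4:**
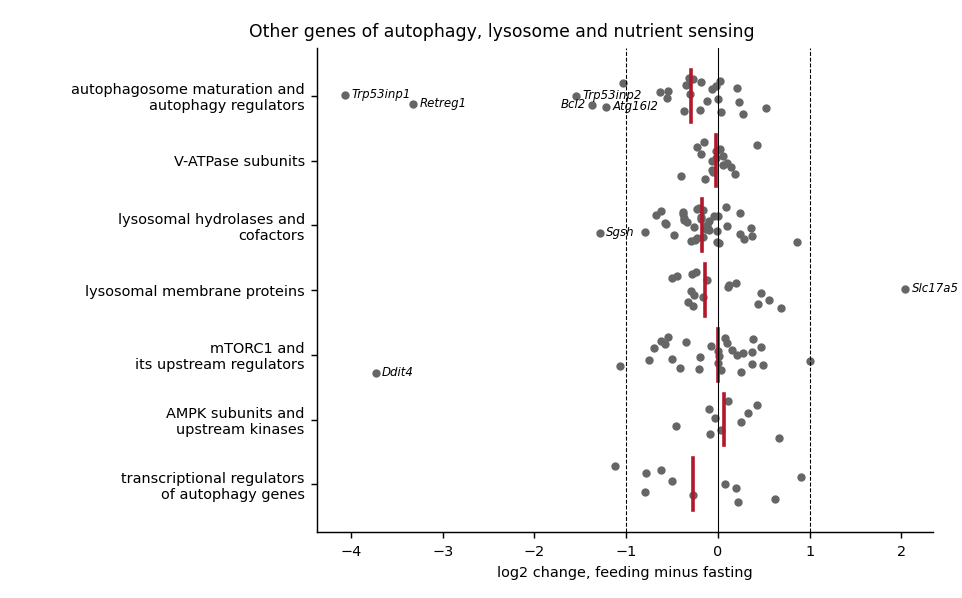
Log2 change, feeding minus fasting, of each measured gene (points) in 7 lists of related genes, with the list median as a red line and dashed lines at 2-fold; genes beyond 1.2 on the log2 scale are named. Autophagosome maturation and regulation holds the most genes far to the left, led by Trp53inp1 and Retreg1, while V-ATPase subunits and AMPK genes stay within 2-fold.

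The genes of the set that differed by 1.5-fold kept their direction under every processing tried. The changes of the 10 lower ones were between -1.36 and -0.60 as reported, and the highest of them under any setting was -0.39, for Ulk1 under median scaling. Atg14 was past 2-fold under every setting and Calcoco1 under all but normexp. Gabarapl1, Map1lc3b and Wipi1 lay close enough to 2-fold that the scaling or the background correction decided their call.

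**Figure D5:**
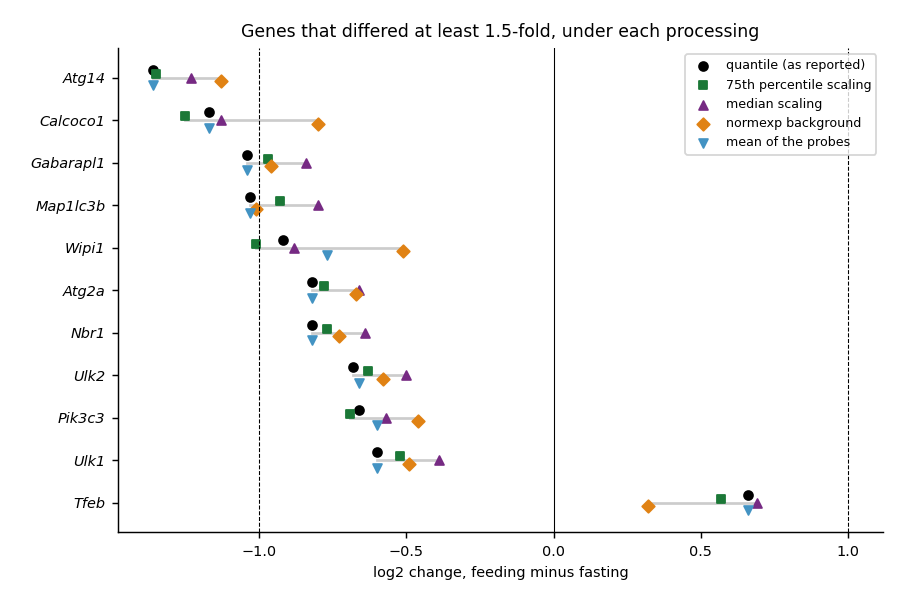
Log2 change, feeding minus fasting, of the 11 genes of the set that differed at least 1.5-fold, as reported (circles) and under other scalings, another background correction and the mean of the probes; dashed lines mark 2-fold. Every gene stays on its side of 0, and only Atg14 lies beyond 2-fold under all of them.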

How the data were processed

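Liver RNA from fasted and fed mice was measured on 1 Agilent array per group, each hybridised with RNA pooled from 3 mice. The authors ran Agilent Feature Extraction 11.0.1.1 on the scans and deposited an intensity for every spot, background-subtracted but without normalization across arrays. Of the 44397 spots per array, 1377 controls were left out, as were 123 and 98 outliers; 63.1% of spots upon fasting and 72.3% upon feeding were well above background, and 0 were saturated. The value table of the series equals the local background at all 44397 spots of both arrays and was not used.

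The log2 signal, computed here from the deposited intensity, was taken as the mean of a probe's spots and quantile normalized in Python 3.11.15 with numpy 2.4.6 and pandas 2.3.3. Through RefSeq identifiers of GRCm38.p6, 27218 of 39402 probes (69.1%) matched 20652 genes. Probe coordinates are not given, since the array design names an older assembly. Each gene took the values of its brightest probe by mean signal and counted as well above background where at least 50% of that probe's spots were. Where it was so on 1 array only, the change is a lower bound. Calls were made at 2-fold, as in the study's methods. No test was possible with 1 array per group, and the number of arrays limits the precision.

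Named with values were genes past 2-fold, the extremes of each class, those beside the threshold, those with discordant probes and at most 4 of each related list. Further values were added so that each gene of the set is described. Atg16l2, Rab7, Atf4, Foxo3 and Crtc2 were added after their values were seen. The gene set and the lists were chosen with earlier results of these data known. The alternatives comprised 75th percentile and median scaling, normexp with an offset of 50 (limma 3.58.1, R 4.3.3), the mean of the probes, other filters on dim probes, measured signals in place of bounds, and thresholds of 1.5-fold and 3-fold. The procedure was tested on simulated data.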

Additional observations from a re-analysis of the deposited data

How the results depend on the processing

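No gene of the set that differed by 1.5-fold changed sign under an alternative, while counts and class medians moved. With each array scaled by its median, 2 genes were past 2-fold, both lower (Atg14 and Calcoco1), the median of the set was 0.00, and the class medians were -0.31 for the ULK1 complex, -0.20 for the PI3K complex, 0.01 for membrane supply, 0.22 for conjugation, -0.11 for LC3 and GABARAP proteins, -0.14 for cargo receptors, 0.35 for the transcription factors and 0.02 for lysosomal proteins. That scaling moved the median of all genes to 0.09 and of the bright group of genes to 0.21. With the 75th percentile the median of LC3 and GABARAP proteins was -0.23. With normexp, run on median signals of spots, 2 genes were past 2-fold, both lower (Atg14 and Map1lc3b), 6 were at least 1.5-fold lower, and the transcription factors had a median of 0.07. With the mean of the probes the ULK1 complex had a median of -0.60. At 1.5-fold, 11 genes were past the threshold, 10 lower and 1 higher, and at 3-fold 0 were past it and 0 lower. The cause of these shifts was not tested. The match by gene symbol was not run, because the array files used here have no such column. No paired analysis was possible because each group has 1 array. Dim probes limit Tfeb, Atg9a, Atg4a and the second reading of Wipi1 on its other probe. Differences between mice could not be measured.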
